A study of Mus musculus with 6 samples.

Results

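Meningeal fibroblast and collagen matrix genes were described in 6 brainstem libraries, 3 from wild type (WT) and 3 from Rag1-/- mice. A list of 38 genes, made of collagen chains, proteoglycans, other matrix proteins, transporters and transcription factors of meningeal fibroblasts, was looked up by symbol in the deposited table of 18058 genes, and those with a mean of at least 0.1 CPM (read counts scaled to the library total) were kept. All 38 were in the table and all 38 passed, among 16762 genes of the table that did. The rule uses no measured difference between the genotypes, although the list was drawn up with earlier results of these data known.

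The WT group held C57BL/6J mice and the other group held mice of the Rag1-/- genotype, a germline loss of a recombinase subunit needed to join antigen receptor segments, which leaves mice without mature lymphocytes. All were 1 month old, no treatment is given in the labels, and each library came from a different mouse. The study kept mating cages within a genotype and names the Rag1-/- strain as B6.129S7-Rag1tm1Mom/J, so litter and cage cannot be told apart from genotype. Total RNA from snap-frozen brainstem was sequenced, so a lower level of a transcript could come from fewer cells of a type or from less RNA per cell, and these cannot be told apart.

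Meningeal fibroblasts form the dura, arachnoid and pia around the brain, and a related population lines the larger vessels that run into it. They secrete the fibrillar collagens and proteoglycans of the leptomeninges and contribute to the basement membrane at the brain surface. In the brain, the arachnoid and pia are known for solute transporters and for the synthesis of retinoic acid, and forkhead factors are needed for their formation in the embryo. Several of the genes are also expressed elsewhere, such as Col4a1 and Col4a2 in vessel walls and Igfbp2 in the choroid plexus.

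The libraries held an estimated 31600000 to 46400000 reads, and 3 reads then equal 0.0646 to 0.0951 CPM. The marker transcripts of neurons (4197 to 4666 CPM summed over 8 genes) and of astrocytes (3156 to 3447 CPM over 8 genes) were abundant in every library. Reads of the targeted gene were higher under the Rag1-/- label. Rag1 transcripts were at 0.246 ± 0.137 CPM (SD, n = 3) in WT against 3.18 ± 0.750 CPM (SD, n = 3) under the Rag1-/- label. A value over the whole gene does not show whether an intact transcript was made, which was not tested. The study reports transcripts lower in Rag1-/- brainstem by sequencing and again, by quantitative PCR, in separately acquired Rag1-/- samples. Every direction given here rests on the label. WT 3 stood apart from WT 1 and WT 2. Xist was at 2.93 CPM in WT 3, against 172 and 177 CPM in WT 1 and WT 2, and at no more than 0.738 CPM in those with the Rag1-/- label. Markers of the pituitary, which lies beneath the brain, summed to 662 CPM in WT 3, 62.1 CPM in WT 2, 7.25 CPM in WT 1 and 5.17 to 9.95 CPM in those with the Rag1-/- label. WT 1 and WT 2 thus differed in Xist from the other 4 libraries, and Ddx3y, on the Y chromosome, was at 0.215 to 0.283 CPM in WT 1 and WT 2 and at 45.2 to 56.2 CPM in the other 4, so these sex-linked transcripts were unevenly spread over the genotypes. The main summaries and the role groups are also given without WT 3. In those fits every WT library has high Xist and every library labelled Rag1-/- has low Xist. Sex and genotype label then cannot be told apart.

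As examples of start regions, the bases just before the transcription start are shown for Slc22a6, Aldh1a2, Col3a1 and Postn. Slc22a6 had the widest range over the libraries, and Aldh1a2 is a retinoid gene that varied less. Col3a1 and Postn are the genes of the list whose searched start region held the letters TATAAA. Each line gives the 120 bases upstream of the RefSeq start, on the gene's own strand, in build GRCm38.p6. Capitals mark the letters of the TATA box motif (TATAAA) in Col3a1 and Postn. In Col3a1 they lie at the far end of the stretch from the start. In Slc22a6 and Aldh1a2 capitals mark the CCAAT box motif (CCAAT, read on both strands, which overlap in Slc22a6).
Slc22a6, chr19:8617876-8617995 (+): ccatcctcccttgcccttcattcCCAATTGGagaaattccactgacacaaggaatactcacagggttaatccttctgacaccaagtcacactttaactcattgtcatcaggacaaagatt
Aldh1a2, chr9:71215669-71215788 (+): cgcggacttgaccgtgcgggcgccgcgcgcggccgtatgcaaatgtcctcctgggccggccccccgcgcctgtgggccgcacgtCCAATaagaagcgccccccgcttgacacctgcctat
Col3a1, chr1:45311418-45311537 (+): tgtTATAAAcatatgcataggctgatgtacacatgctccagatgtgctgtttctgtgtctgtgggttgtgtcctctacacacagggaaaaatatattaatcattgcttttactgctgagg
Postn, chr3:54360987-54361106 (+): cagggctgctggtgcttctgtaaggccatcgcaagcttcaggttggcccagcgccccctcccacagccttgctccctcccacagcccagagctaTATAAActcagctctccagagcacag
A RefSeq window of 250 bases before to 50 after the start matched 23 of the 38 genes. Searched on both strands, TATAAA was in 2 of these 23, against 12.4% of all 32851 windows, and CCAAT was in 10 of 23, against 33.9%. The GC box GGGCGG was in 13 of 23, against 32.7% of windows, and the forkhead motif GTAAACA was in 1 of 23, that of Col6a1, against 3.17%. These matches describe letters in a window and say nothing of binding.

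The levels spanned a wide range. Per kilobase of exon, Mgp, which encodes an inhibitor of calcification, was the highest of the 38 genes at a mean of 49.6 CPM per kb. Igfbp2, an insulin-like growth factor binding protein, followed at 37.3 CPM per kb. Col4a1 (8.86 CPM per kb), Col4a2 (8.52), Serpinf1 (8.47) and Col1a2 (8.30) came next, and their ranges over the 6 libraries overlapped. The lowest were Col6a3 (0.423 CPM per kb), Foxd1 (0.395) and Col5a1 (0.380), whose ranges also overlapped. None was near the detection limit. The fewest estimated reads in any library were 36 for Foxc2, where counting error alone is 16.7%, and the most for a gene's lowest library were 1915 for Fn1.

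The comparison of the libraries labelled Rag1-/- with WT asks whether the brainstem differs in these transcripts when mature lymphocytes are missing. On the scale of log2(CPM + 0.1), which understates changes of low genes, 32 of the 38 genes (84.2%) were lower in the libraries labelled Rag1-/-, where 67.7% of all tested genes were. Their median log2 fold change was -0.18, against -0.051 over all tested genes. None of the 38 passed an adjusted p of 0.05 by limma, as 0.0477% of all tested genes did, and the lowest adjusted p by limma was 0.328, for Slc13a4. At an unadjusted p of at most 0.05, 4 genes (10.5%) were lower, a share close to the 9.29% of all tested genes that were lower at that threshold, and 0 were higher, against 2.27%. Slc13a4 and Pcolce (5.26% of the genes) had all 3 libraries labelled Rag1-/- below every WT library, against 14.4% of all tested genes, and 0 genes were higher without overlap, against 3.98%. Single libraries moved these summaries. Without WT 3, 23 of the 38 genes (60.5%) were lower, against 65.7% of all tested genes, and the median log2 fold change of the 38 genes was -0.042, against -0.048 over all tested genes. At an unadjusted p of at most 0.05, 3 genes were then lower (7.89%, against 9.29% of all tested genes) and 3 higher (7.89%, against 2.33%). Without overlap 3 were lower, against 23.3% of all tested genes, and 3 higher, against 7.51%. Without replicate 1 labelled Rag1-/-, 27 of the 38 genes (71.1%) were lower, against 66.9% of all tested genes, the median log2 fold change was -0.087, against -0.046, and 1 gene (2.63%, against 5.20%) was lower at that unadjusted threshold. Without WT 1, 35 of the 38 were lower, against 65.5% of all tested genes, the median was -0.27, 12 genes (31.6%, against 7.04% of all tested genes) were lower at that threshold and 11 were lower without overlap (28.9%, against 20.4%).

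With a term for high Xist, in which WT 3 is the only WT library with low Xist, 36 of the 38 genes were lower, against 62.6% of all tested genes. The median log2 fold change was -0.40, against -0.052 over all tested genes. This fit estimates the genotype difference from WT 3 alone against the libraries labelled Rag1-/-, so its calls are not counted here. The share of lower genes also moved with the scaling. After median-of-ratios rescaling 30 of the 38 genes were lower, against 53.1% of all tested genes, and after quantile normalization 28 were, against 49.1%. Over all tested genes 1558 were lower and 380 higher at an unadjusted p of at most 0.05, but 727 and 801 after median-of-ratios rescaling and 640 and 855 after quantile normalization.

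**Figure D1:**
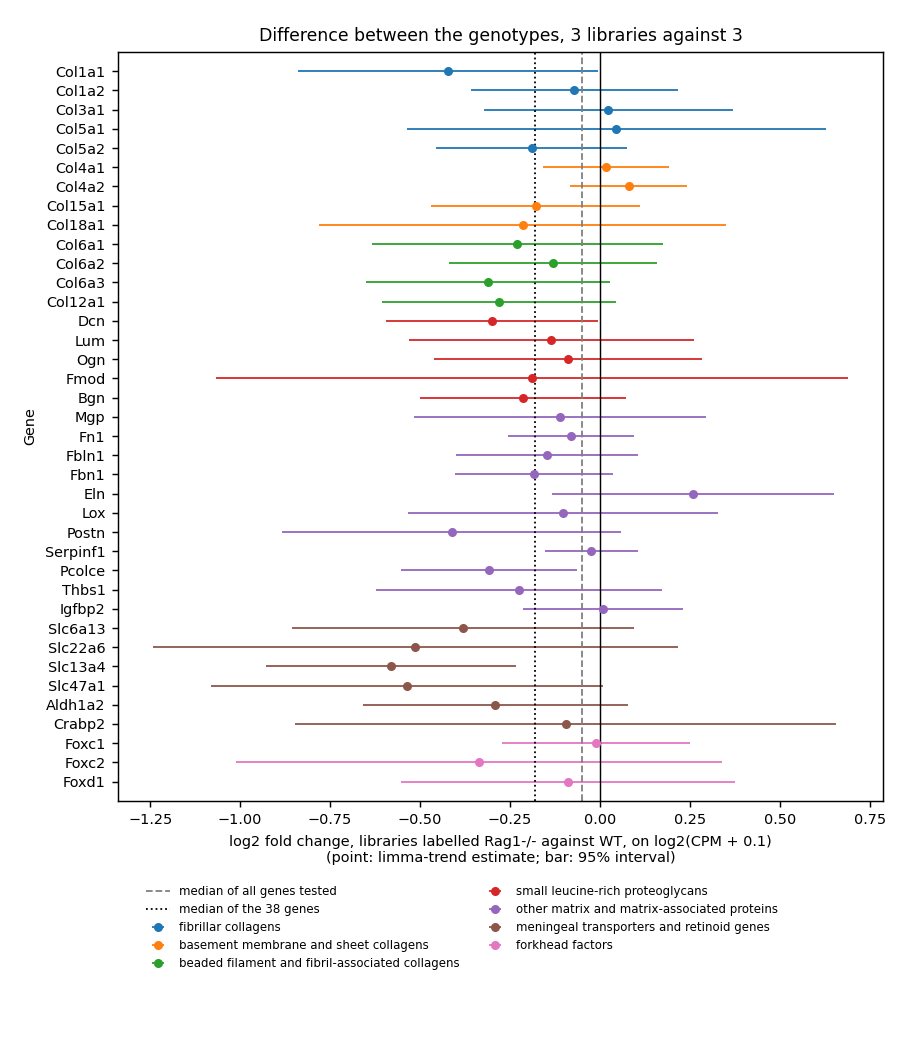
Log2 fold change (libraries labelled Rag1-/- against WT, on log2(CPM + 0.1), x axis) of each of the 38 genes (y axis), with 95% intervals from limma-trend, 3 libraries against 3. Most points lie left of 0 and most intervals include it, the dotted line marks the median of the 38 genes (-0.18) and the dashed line that of all tested genes (-0.051).

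The libraries of 1 genotype lay further apart than the genotypes did. WT 3 had the highest level of the 6 libraries for 27 of the 38 genes (71.1%), against 28.7% of all tested genes. Replicate 1 labelled Rag1-/- had the lowest level for 24 (63.2%), against 24.9%. Each gene's deviation from its own mean over the 6 libraries had a median over the 38 genes of -0.12 in WT 1, 0.051 in WT 2 and 0.33 in WT 3. In replicates 1, 2 and 3 labelled Rag1-/- it was -0.23, 0.045 and -0.042, so WT 1 lay below 2 of these. Within the WT group, WT 3 was above both others for 28 of 38 genes, against 39.2% of all tested genes. Within the other group, replicate 1 was below both others for 35 of 38 genes, against 36.3% of all tested genes.

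**Figure D2:**
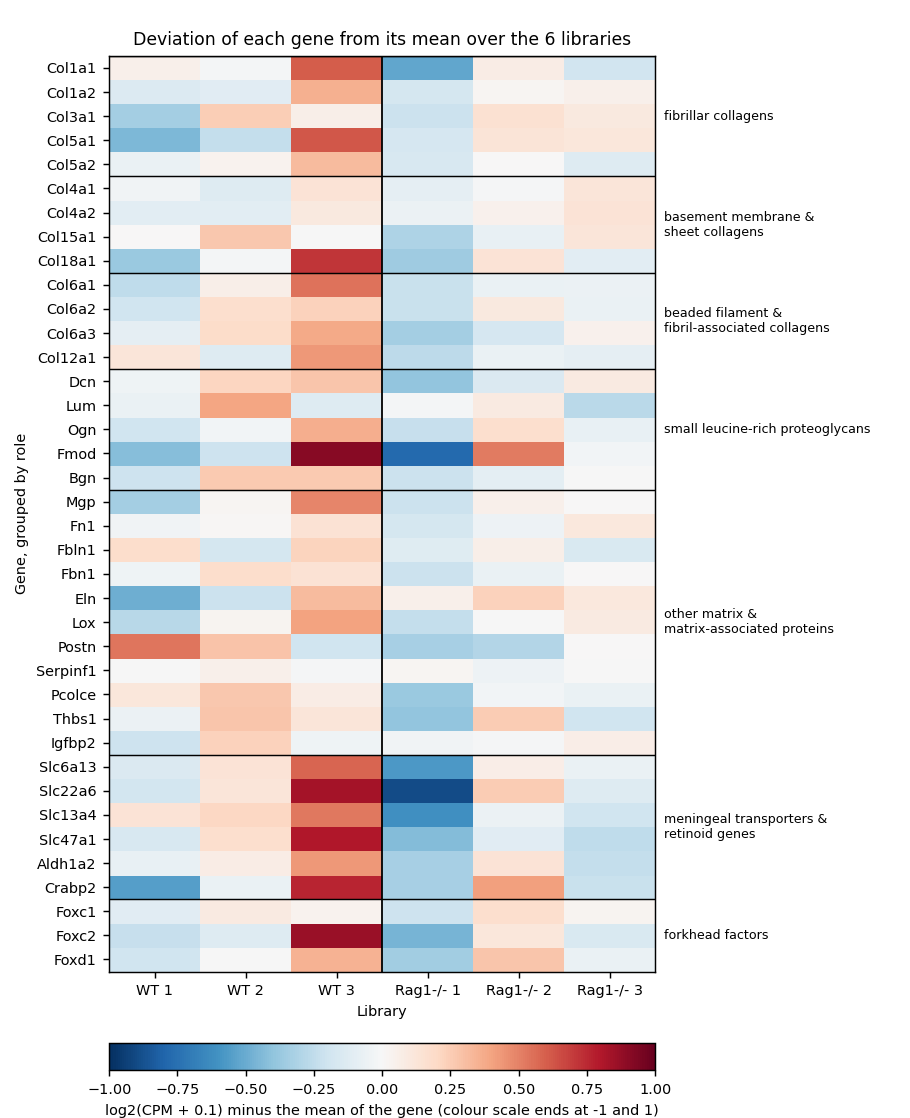
Deviation of log2(CPM + 0.1) of each gene (rows, grouped by role) from its mean over the 6 libraries (columns), with red above and blue below the mean. WT 3 is mostly red and replicate 1 labelled Rag1-/- mostly blue, with the strongest colours in Fmod, Slc22a6, Slc47a1 and Foxc2.

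Of the fibrillar collagens, which form the tensile fibres of the meninges, 3 of 5 were lower in the libraries labelled Rag1-/- (2 of 5 without WT 3) and only Col1a1 had an unadjusted p of at most 0.05. Without WT 3, Col5a1 alone was at that threshold, and it was higher. Col1a1 (chr11:94936224-94953042, plus strand), the alpha1 chain of type I collagen, was at 26.3, 25 and 38.6 CPM in WT 1, 2 and 3 and at 17.7, 26.6 and 22.2 CPM in replicates 1, 2 and 3 labelled Rag1-/-. The groups overlapped, with WT 3 the highest and replicate 1 labelled Rag1-/- the lowest. Its log2 fold change was -0.42 (standard error 0.18, unadjusted p = 0.0481 and adjusted p = 0.430 by limma). It passed that threshold in 6 of 15 alternative fits. Without WT 3 the log2 fold change was -0.23 (adjusted p = 0.576 by limma) and without replicate 1 labelled Rag1-/- it was -0.27 (adjusted p = 0.782 by limma), both short of the unadjusted threshold. Col1a2, the alpha2 chain of the same fibre, was at 40.0, 40.7 and 56.3 CPM in WT and at 39.0, 44.6 and 45.5 CPM in the other group, which gave a log2 fold change of -0.071 (95% interval -0.36 to 0.22).

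The chains of type I collagen were also compared as a ratio. Per kilobase, the ratio of Col1a1 to Col1a2 was 0.593, 0.553 and 0.617 in WT and 0.410, 0.538 and 0.441 in the libraries labelled Rag1-/-, with no overlap, with or without WT 3. By an exact permutation test (two-sided) p was 0.1, the smallest that 3 against 3 allows, and 0.5 after adjustment over the 5 chain ratios computed. The other 4 ratios overlapped between the groups. Col4a1 to Col4a2 was the steadiest, between 1.00 and 1.09 in the 6 libraries, while Col5a1 to Col5a2 ran from 0.320 to 0.528, Col6a1 to Col6a2 from 0.755 to 1.06 and Col6a3 to Col6a1 from 0.210 to 0.263.

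Col3a1, the single chain of type III collagen, was at 13.2, 19.9 and 17.5 CPM in WT and at 14.4, 18.6 and 17.9 CPM in those with the Rag1-/- label. The groups lay over each other, with a log2 fold change of 0.023 (95% interval -0.32 to 0.37). Col5a1 and Col5a2, chains of the type V collagen that starts fibril assembly, had log2 fold changes of 0.046 and -0.19. Col5a1 was at 4.83 CPM in WT 3, 1.96 times the mean of the other WT libraries on the log scale, and without WT 3 its log2 fold change was 0.37, with no overlap between the groups.

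Of the basement membrane and sheet collagens, Col4a1 and Col4a2 varied the least of the 13 collagen genes between libraries and Col18a1 the most, by the SD of log2 values (0.106 for Col4a2, 0.109 for Col4a1 and 0.402 for Col18a1), and none had an unadjusted p of at most 0.05. Lower were 2 of 4, and 1 of 4 without WT 3, where Col4a2 was higher at that threshold. Col4a1 and Col4a2, the common chains of the type IV network, were at 53.5 to 64.2 CPM and 50.9 to 60.4 CPM over the 6 libraries, and their log2 fold changes were 0.016 (95% interval -0.16 to 0.19) and 0.079 (-0.083 to 0.24). Both genes start on chromosome 8 and run in opposite directions, and their deposited spans, which begin at bases 11312826 and 11312805, share 22 bases. Whether the counting used strand is not given in the sources used here, so reads in these bases cannot be assigned. Col15a1, of the zone beneath basement membranes, was at 7.33 to 8.90 CPM in WT and 5.92 to 8.0 CPM in those with the Rag1-/- label. Col18a1, whose end fragment is endostatin, was at 7.67, 9.80 and 16.4 CPM in WT and at 7.77, 11.0 and 9.22 CPM in the other group. Only WT 3 stood out for Col18a1, and its log2 fold change moved from -0.22 to 0.089 without that library.

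The 4 genes of beaded filament and fibril-associated collagens were all lower in the libraries labelled Rag1-/-, with log2 fold changes between -0.31 and -0.13, and 0 of 4 had an unadjusted p of at most 0.05. Without WT 3 all 4 were still lower, with a median log2 fold change of -0.093 in place of -0.26. Without WT 1, 3 of 4 (75.0%) were lower at an unadjusted p of at most 0.05 and 3 were lower without overlap. Of all tested genes 7.04% and 20.4% were. Col6a3, the largest chain of type VI collagen, was at 4.25, 5.15 and 5.92 CPM in WT and at 3.55, 4.02 and 4.67 CPM in those with the Rag1-/- label. The groups overlapped through WT 1 alone. Col6a1 ranged from 6.11 to 10.7 CPM in WT and from 6.24 to 7.0 CPM in the other group, Col6a2 from 10.9 to 14.8 CPM and from 10.8 to 13.5 CPM. Col12a1, a collagen that binds to fibrils, was at 5.51 to 8.19 CPM in WT and 5.03 to 5.77 CPM in those with the Rag1-/- label. In all 4 of these genes WT 3 was the highest of the 6 libraries.

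The small leucine-rich proteoglycans coat collagen fibrils and set their width. All 5 had negative log2 fold changes, between -0.30 and -0.089, and 1 had an unadjusted p of at most 0.05. Without WT 3, 3 of 5 were negative and none was at that threshold. Dcn (decorin, chr10:97479500-97518163, plus strand) was at 14.5, 17.5 and 18.2 CPM in WT and at 11.4, 13.5 and 16.0 CPM in those with the Rag1-/- label. Only WT 1 and replicate 3 labelled Rag1-/- crossed over. Its log2 fold change was -0.30 (standard error 0.13, unadjusted p = 0.0463 and adjusted p = 0.429 by limma). It passed the unadjusted threshold in 6 of 15 alternative fits. Without WT 3 the log2 fold change was -0.24 (adjusted p = 0.548 by limma) and without replicate 1 labelled Rag1-/- it was -0.18 (adjusted p = 0.778 by limma), and neither passed it. Bgn (biglycan) was at 16.0, 22.2 and 22.2 CPM in WT and at 15.9, 17.2 and 18.4 CPM in the other group. Lum (lumican) was highest in WT 2, at 3.36 CPM, and lay between 2.08 and 2.69 CPM in the other 5 libraries, while Ogn (osteoglycin) was at 4.30 to 6.55 CPM.

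Fmod (fibromodulin) spread more within each group than between them. It was at 11.0, 12.9 and 28.1 CPM in WT and at 8.64, 21.3 and 14.6 CPM in those with the Rag1-/- label, a 3.25-fold range over the 6 libraries. Its log2 fold change was -0.19 with a 95% interval of -1.07 to 0.69, so a difference in either direction could not be resolved.

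Of the 11 other matrix and matrix-associated proteins, 9 were lower in the libraries labelled Rag1-/- and 1 had an unadjusted p of at most 0.05. Without WT 3, 8 were lower, 2 of them (Postn and Pcolce) at that threshold, and Eln was higher at it. Pcolce (chr5:137605107-137611404, minus strand), an enhancer of the enzyme that trims the end of fibrillar procollagens, was at 9.89, 11.0 and 9.63 CPM in WT and at 7.05, 8.97 and 8.68 CPM in those with the Rag1-/- label. The groups did not overlap, and WT 3 was the lowest of the WT libraries, unlike for most of the 38 genes. Its log2 fold change was -0.31 (standard error 0.11, unadjusted p = 0.0192 and adjusted p = 0.373 by limma), and by an exact permutation test (two-sided) p was 0.1. The unadjusted p by limma was over 0.05 in 3 of the 15 alternative fits, at 0.0637 without replicate 1 labelled Rag1-/-, 0.0679 without WT 2 and 0.161 with a term for high Xist.

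Eln (elastin), the core of elastic fibres, had the largest positive log2 fold change of the 38 genes, 0.26 (95% interval -0.13 to 0.65). It was at 15.9, 19.3 and 27.8 CPM in WT and at 23.1, 26.2 and 24.1 CPM in those with the Rag1-/- label. WT 3 was above every library of the other group and WT 1 and WT 2 were below all of them. Without WT 3 its log2 fold change was 0.48 (unadjusted p = 0.000763 and adjusted p = 0.180 by limma). Fbn1 (fibrillin-1), which forms the microfibrils around elastin, was at 7.36 to 8.59 CPM in WT and 6.53 to 7.60 CPM in those with the Rag1-/- label, and Lox, which crosslinks collagen and elastin, was at 1.75 to 2.85 CPM and 1.79 to 2.28 CPM.

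Postn (periostin), a matrix protein that binds collagen I, was at 2.55, 2.13 and 1.49 CPM in WT and at 1.36, 1.39 and 1.74 CPM in those with the Rag1-/- label. Here WT 3 was the lowest WT library and the only one within the range of the other group. The log2 fold change was -0.41 (unadjusted p = 0.0786 by limma), and without WT 3 it was -0.62 (unadjusted p = 0.00808 by limma). Serpinf1, the pigment epithelium-derived factor, was the steadiest of the 38 genes, between 15.8 and 17.0 CPM with a 1.07-fold range. Fn1 (fibronectin) was at 55.7 to 69.6 CPM with a log2 fold change of -0.080 (95% interval -0.26 to 0.095), and Igfbp2 at 47.0 to 63.8 CPM with one of 0.0077 (-0.22 to 0.23). Mgp, Fbln1 (fibulin-1) and Thbs1 (thrombospondin-1) had log2 fold changes of -0.11, -0.15 and -0.22.

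**Figure D3:**
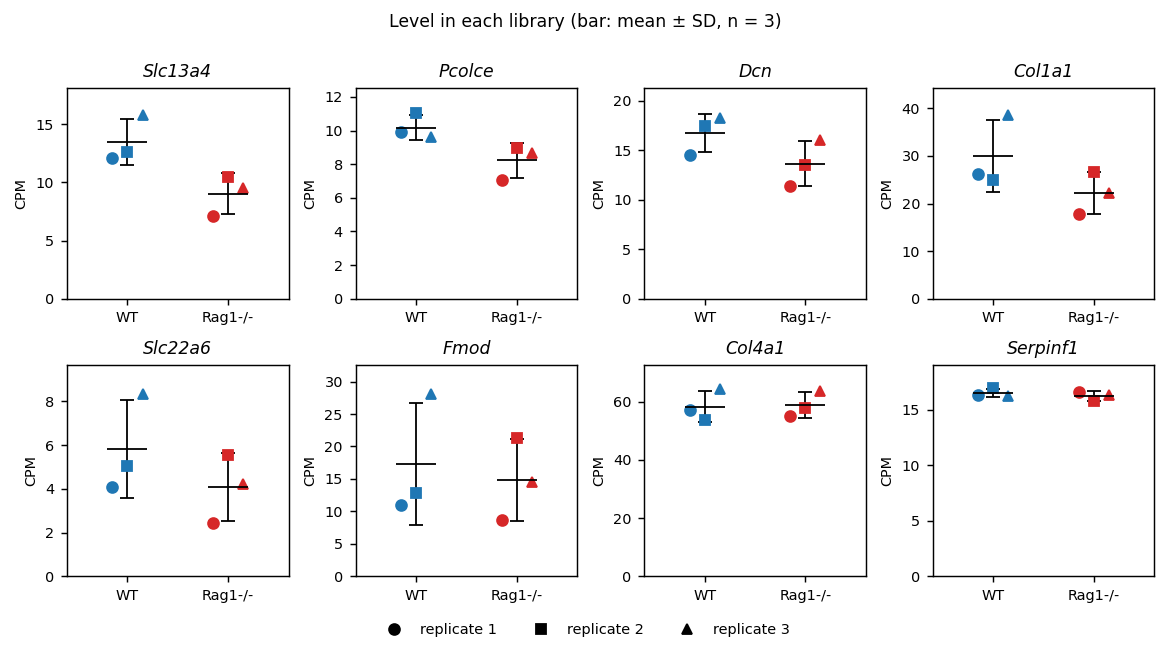
CPM (y axis, from 0) of 8 of the 38 genes in each library by genotype label, with symbols for replicates and the mean ± SD of 3 libraries. Slc13a4 and Pcolce do not overlap between the groups, Dcn, Col1a1, Slc22a6 and Fmod do, and Col4a1 and Serpinf1 lie at like levels in both.

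The meningeal transporters and retinoid genes had the most negative median log2 fold change of the 7 role groups, -0.45, and all 6 were lower in the libraries labelled Rag1-/-. Of these, 1 had an unadjusted p of at most 0.05. The count was 4 (66.7%) without WT 1 and 3 (50.0%) without replicate 2 labelled Rag1-/-, against 7.04% and 8.22% of all tested genes. Without WT 3 the median of the group was -0.21 and 5 of 6 were lower, with Crabp2 higher. Without replicate 1 labelled Rag1-/- it was -0.195, also with Crabp2 higher, and that of the beaded filament and fibril-associated collagens, -0.197, was then as low. Slc13a4 (chr6:35267953-35308126, minus strand), a sodium-coupled sulfate transporter, was at 12.1, 12.6 and 15.8 CPM in WT and at 7.13, 10.5 and 9.51 CPM in those with the Rag1-/- label. All WT libraries were above all of the others. The mean was 13.5 ± 2.00 CPM (SD, n = 3) in WT and 9.04 ± 1.72 CPM (SD, n = 3) in the other group. Its log2 fold change was -0.58 (standard error 0.15, unadjusted p = 0.00447 and adjusted p = 0.328 by limma), and an exact two-sided permutation test gave p = 0.1. Over the 15 alternative fits the log2 fold change ran from -0.81 to -0.42, and the unadjusted p by limma stayed at or under 0.0175.

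The other transporters varied more within the groups. Slc22a6, a carrier of organic anions, was at 4.08, 5.06 and 8.34 CPM in WT and at 2.45, 5.54 and 4.24 CPM in those with the Rag1-/- label, the widest range of the 38 genes at 3.40-fold. WT 3 was the highest and replicate 1 labelled Rag1-/- the lowest, and the other 4 libraries lay between 4.08 and 5.54 CPM. Slc47a1, an exporter of organic cations, was at 1.56, 1.98 and 3.13 CPM and at 1.27, 1.62 and 1.45 CPM (log2 fold change -0.54, standard error 0.24, unadjusted p = 0.0526 by limma). Slc6a13, a GABA and taurine transporter, was at 7.41, 9.06 and 12.3 CPM and at 5.49, 8.62 and 7.83 CPM. All 3 had WT 3 as the highest and replicate 1 labelled Rag1-/- as the lowest library.

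Aldh1a2, the enzyme that makes retinoic acid, was at 6.40, 7.09 and 9.14 CPM in WT and at 5.31, 7.41 and 5.69 CPM in those with the Rag1-/- label. Its log2 fold change was -0.29 (95% interval -0.66 to 0.077). Crabp2, which carries retinoic acid within the cell, was at 1.20, 1.72 and 3.13 CPM and at 1.42, 2.44 and 1.54 CPM. Only WT 3 put the WT mean of Crabp2 above the other, and without it the log2 fold change moved from -0.095 to 0.26. Over the whole transporter and retinoid group the median deviation was 0.67 in WT 3 and -0.50 in replicate 1 labelled Rag1-/-, and between -0.21 and 0.13 in the other 4 libraries.

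The 3 forkhead factors had log2 fold changes of -0.010 (Foxc1), -0.089 (Foxd1) and -0.34 (Foxc2), none at an unadjusted p of at most 0.05. Without WT 3 all 3 were positive, and without replicate 1 labelled Rag1-/- only Foxc2 was negative. Foxc1, which is needed to form the meninges and skull, was at 6.03 to 6.94 CPM in WT and 5.63 to 7.33 CPM in those with the Rag1-/- label. Its paralog Foxc2 was at 1.24, 1.34 and 2.76 CPM and at 1.04, 1.6 and 1.31 CPM, again highest in WT 3, and without WT 3 its log2 fold change was 0.012. Foxd1 was at 1.53 to 2.53 CPM. The signs of the small differences depended on the scaling, since Foxc1 and Serpinf1 turned positive under median-of-ratios and quantile scaling, and Foxd1 and Crabp2 under quantile scaling.

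The wider collagen pathway was described with lists of genes outside the 38, whose counts at an unadjusted p of at most 0.05 stand beside 9.29% lower and 2.27% higher of all tested genes. Of 24 tested genes for collagen synthesis, folding and crosslinking, 2 were lower and 0 higher at an unadjusted p of at most 0.05. Their median log2 fold change was -0.0015. Without WT 3, 1 was lower (4.17%, against 9.29% of all tested genes) and 2 higher (8.33%, against 2.33%). Adamts2, which trims the N-terminal propeptide of fibrillar procollagens, was at 20.2 ± 2.00 CPM in WT, against 16.3 ± 1.02 CPM under the Rag1-/- label (SD, n = 3 each). Loxl3, a lysyl oxidase relative, was at 5.16 ± 0.321 and 4.30 ± 0.357 CPM. Both did not overlap between the groups, and the adjusted p by limma was 0.335 and 0.410. Of 27 tested chains of other collagens, 2 were lower and 2 higher, among them Col27a1 (log2 fold change -0.33), Col9a3 (0.21) and Col20a1 (0.46). Without replicate 1 labelled Rag1-/-, 0 were lower, against 5.20% of all tested genes, and 2 higher (7.41%, against 1.45%). Of 15 laminins and basement membrane partners, 3 were lower (Lama1, Lama5 and Lamb1, with log2 fold changes of -0.39, -0.20 and -0.30) and 0 higher, but 0 were lower without WT 3 and 0 without replicate 1 labelled Rag1-/-. Of 15 matrix proteases and inhibitors, only Timp2 was lower (-0.11), and 0 were lower without either of these libraries. Of 18 genes of TGF-beta signalling, the pathway that drives collagen transcription, 2 were lower (Tgfb3 at -0.29 and Tgfbr3 at -0.32) and 6 (33.3%) were lower without overlap, against 14.4% of all tested genes. Of 7 collagen receptors, Ddr1 was higher (0.12). No gene of these lists passed an adjusted p of 0.05 by limma.

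Markers of cells that could be dissected with the brainstem were read in the same way, and their part in the results was not tested. Of 23 further fibroblast markers, 3 were lower and 1 higher at an unadjusted p of at most 0.05. They summed to 2453 to 2953 CPM in WT and 2470 to 2729 CPM in those with the Rag1-/- label. Gjb6 of this list is also an astrocyte marker here and Lamb1 also a laminin, so the sum is not a level of fibroblasts alone. The lower count was 1 (4.35%) without WT 3, 1 (4.35%) without replicate 1 labelled Rag1-/- and 8 (34.8%) without WT 1. Of all tested genes 9.29%, 5.20% and 7.04% were lower at that threshold in these fits. Among the fibroblast markers Nov was lower, at 7.19 ± 1.44 CPM in WT against 4.72 ± 0.704 CPM in the other group (SD, n = 3 each). Cldn11, also a gene of myelin, was higher. The fibroblast markers had a median deviation of 0.26 in WT 3 and -0.15 in replicate 1 labelled Rag1-/-, the same ends as the 38 genes. Border macrophage markers, 0 of 8 at that threshold, were likewise highest in WT 3 (median deviation 0.29) and summed to 22.6 to 28.4 CPM in WT and 21.8 to 24.9 CPM in the other group.

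Vessel markers did not follow WT 3. Of 12 mural markers 0 and of 13 endothelial markers 1 (Cdh5, lower) had an unadjusted p of at most 0.05. Without WT 3 these were 1 (8.33%) and 5 (38.5%), all lower, against 9.29% of all tested genes that were lower. The log2 level in WT 3 less that in the other WT libraries had a median of -0.20 over the endothelial markers and of 0.34 over the 38 genes. Endothelial markers summed to 545 to 562 CPM in WT and 505 to 545 CPM in those with the Rag1-/- label, and mural markers to 269 to 308 and 274 to 304 CPM. Choroid plexus markers went the opposite way from the 38 genes in WT 3. All 10 were lower in the libraries labelled Rag1-/-, 2 of them (Clic6 and Otx2) at an unadjusted p of at most 0.05, and they summed to 993 and 1251 CPM in WT 1 and WT 2, 495 CPM in WT 3, and 564 to 643 CPM in those with the Rag1-/- label. Without WT 3 all 10 were lower at that threshold and without overlap, against 9.29% and 23.3% of all tested genes. The median log2 fold change of the list was then -0.69 in place of -0.42. Without replicate 1 labelled Rag1-/- 0 were at that threshold.

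**Figure D4:**
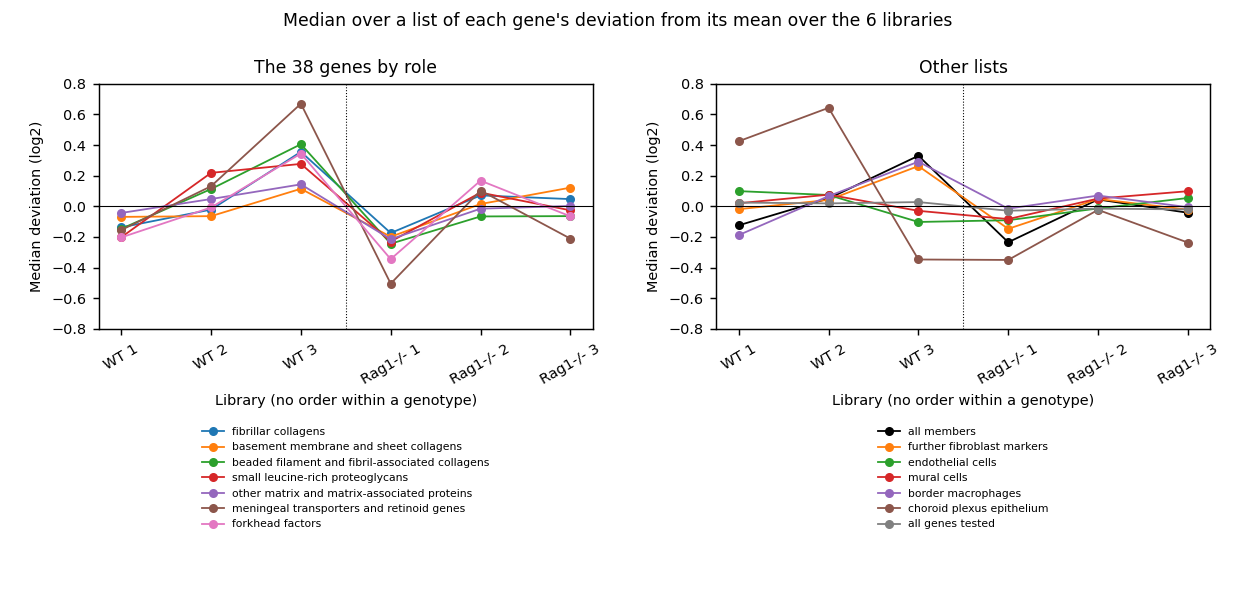
Median over each list of the deviation of log2(CPM + 0.1) from a gene's mean over the 6 libraries (y axis), for each library (x axis, no order within a genotype), for the 38 genes by role (left) and for all 38 and other lists (right). The transporter and retinoid genes reach 0.67 in WT 3 and -0.50 in replicate 1 labelled Rag1-/-, while endothelial and choroid plexus markers are not raised in WT 3.

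Marker lists of tissues outside the brain were also read, and whether the reads came from these tissues was not tested. Of 8 tested pituitary markers all were highest in WT 3 and 4 were lower in the libraries labelled Rag1-/- at an unadjusted p of at most 0.05, Gh and Prl among them, with Gh at 0.732, 43.8 and 381 CPM in WT and at 0.289 to 2.85 CPM in the other group. Without WT 3, 1 of 8 was lower at that threshold (12.5%, against 9.29% of all tested genes). The median log2 fold change of the list moved from -2.11 to -0.58. Of 9 bone markers 4 were lower, and they summed to 67.1 to 104 CPM in WT and 40.3 to 81.0 CPM in those with the Rag1-/- label. Bglap, or osteocalcin, was at 2.07 ± 0.460 CPM in WT against 0.531 ± 0.337 CPM in the other group (SD, n = 3 each). Cartilage markers (0 of 7 at that threshold) summed to 32.2 to 41.2 CPM in WT and 31.6 to 43.3 CPM in the other group, and muscle markers (1 of 9, higher) to 7.31 to 8.92 and 7.08 to 8.85 CPM. Schwann cell markers (1 of 9, Mbp, higher) summed to 7283 to 8615 and 9393 to 11356 CPM, and Mbp is also a gene of central myelin. Red blood cell markers (0 of 6) were at 647 to 1882 CPM in WT, highest in WT 3, and 897 to 1441 CPM in the other group. Without WT 3, 3 of 6 were higher at that threshold (50.0%, against 2.33% of all tested genes). Neither neuron markers (0 of 8) nor astrocyte markers (1 of 8, Aqp4, higher) separated WT 3, and no tested marker of these lists was at or under 3 reads in every library.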

How the data were processed

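Total RNA from 3 WT and 3 Rag1-/- brainstems was sequenced. The authors demultiplexed reads with bcl2fastq, aligned them to mm10 with STAR 2.5.3a, counted genes in Partek Flow and deposited values in CPM, that is counts scaled to library size. The lowest deposited value is 0.0001, and filtering before deposit is not stated. Reads per library were inferred from the spacing of low values, of which 83.9% to 85.5% were whole multiples within 0.1 read, so no count test was run.

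From the CPM values, log2(CPM + 0.1) was taken. The 16762 genes whose mean reached 0.1 CPM were tested with limma-trend (limma 3.58.1, R 4.3.3) with Benjamini-Hochberg adjustment over all of them, after the test was checked on simulated data. Groups came from the labels. Exon lengths for CPM per kb are union lengths of the reference annotation. All 38 genes may be named, and of other lists the 3 smallest p of at most 0.05 per list. The genes and lists were chosen with earlier results of these data known. The alternatives were other pseudocounts (1 and 0.01), filters (none and 1 CPM), scalings and variance models, an Xist term, a replicate block, and fits that left out 1 library. Start regions were read from RefSeq (GRCm38.p6).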

Additional observations from a re-analysis of the deposited data

How the results depend on the processing

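With 3 libraries a group, an exact test cannot go below 0.1. Depth was estimated, not given, so counting error is itself an estimate and was not modelled in the fits. The number of the 38 genes with an adjusted p under 0.05 by limma was 0 in the reported fit and in all 15 alternatives. Outside the Xist term, the lowest adjusted p by limma in an alternative ranged from 0.180 (without WT 3) to 0.726 (without replicate 1 labelled Rag1-/-). Over the alternatives that kept all libraries, 298 of 342 values kept their direction and side of the threshold, 12 were no longer past it, 20 newly passed it and 12 changed sign. With a library left out these were 173, 9, 18 and 28 of 228. The cause of the changes was not tested.

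The count at an unadjusted p of at most 0.05 was 4 as reported. It was 2 with a pseudocount of 1, without a filter, with median-of-ratios rescaling, with quantile normalization and without the trend. That is 5.26% of the 38, against 11.5%, 11.3%, 9.12%, 8.92% and 9.79% of all tested genes in these fits. It was 19, all lower, with a term for high Xist, where the median log2 fold change was -0.40. In that fit WT 3 is the only WT library of its Xist class. Leaving out 1 library gave counts of 1 (without replicate 1 labelled Rag1-/-) to 12 (without WT 1), with 6 without WT 3. Over all tested genes the share at that threshold was then 6.65%, 8.74% and 11.6%. Genes without overlap, 2 as reported, numbered 2 to 11 when a library was left out, with 5 without WT 2, 6 without WT 3, 7 and 8 without replicates 2 and 3 labelled Rag1-/-, and 11 without WT 1. Those without WT 3 were 3 lower and 3 higher, and those without WT 1 were all lower (28.9%, against 20.4% of all tested genes). Over all tested genes the share lower without overlap was 19.1% to 23.5% when a library was left out. The median log2 fold change then ran from -0.27 (without WT 1) to -0.04 (without WT 3), with -0.09 without replicate 1 labelled Rag1-/-. Over all tested genes 11.6% had an unadjusted p of at most 0.05 as reported. The median log2 fold change of all tested genes was -0.01 after median-of-ratios rescaling and 0.00 after quantile normalization.

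Replicate numbers are shared between the groups. Deviations of same-numbered libraries correlated at 0.0926, -0.220 and -0.0183. The labels name no pairing between these libraries, and none was used in the reported fit. A fit with the replicate block gave 9 genes at that unadjusted threshold (23.7%, all lower, against 6.59% of all tested genes that were lower) and 0 at an adjusted p under 0.05 by limma.

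Signs changed for these genes. Under median-of-ratios rescaling the log2 fold change was 0.031 for Foxc1 and 0.018 for Serpinf1. Under quantile normalization the log2 fold change was 0.061 for Foxc1, 0.0073 for Foxd1, 0.0021 for Crabp2 and 0.022 for Serpinf1. With the Xist term the log2 fold change was -0.049 for Col3a1, -0.13 for Col4a1, -0.054 for Col4a2, -0.60 for Col5a1, 0.062 for Lum and -0.19 for Eln. With 1 library left out at a time, it ran from -0.45 to 0.089 for Col18a1, -0.16 to 0.089 for Col1a2, -0.14 to 0.15 for Col3a1, -0.043 to 0.088 for Col4a1, -0.17 to 0.37 for Col5a1, -0.39 to 0.26 for Crabp2, -0.49 to 0.22 for Fmod, -0.097 to 0.091 for Foxc1, -0.54 to 0.012 for Foxc2, -0.25 to 0.061 for Foxd1, -0.093 to 0.13 for Igfbp2, -0.27 to 0.072 for Lox, -0.23 to 0.031 for Lum, -0.31 to 0.10 for Mgp and -0.21 to 0.072 for Ogn. The positive ends for Col18a1, Col1a2, Crabp2, Fmod, Foxc2, Lox, Mgp and Ogn came without WT 3.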
